A study of Mesocricetus auratus with 8 samples.

Results

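The genes described here are 10 members of the Dachsous, FAT and planar polarity group: the cadherins Dchs1, Dchs2, Fat1, Fat2, Fat3 and Fat4, the Golgi kinase gene Fjx1, and the core planar polarity genes Celsr1, Celsr2 and Vangl2. They were found by symbol in the table of the series, as 10 of 31581 genes listed and of 17590 genes with values, and all 10 matched a hamster gene of RefSeq by identifier and symbol. The group was selected on differences between the cold and control libraries of this series. The values of the members in the cold comparison are therefore given as a description. Where members past a threshold are counted, the share of all genes past it stands beside the count. For the alternative fits at the end this share is not given. Nothing is read from counts or shares.

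Libraries of poly(A) RNA came from satellite cells (SCs), the muscle stem cells of adult skeletal muscle, of wild-type male Syrian hamsters, a hibernating rodent. The cells were isolated from hindlimb muscle, enriched by preplating and grown on Matrigel. All SCs spent 48 h at 37°C and then 24 h at 37°C in growth medium (GM) that contained 100 mM HEPES. The 4 control libraries were taken at that point, and the 4 cold libraries after a further 24 h at 4°C in the same medium. The titles place the controls on day 3, whereas another label gives 3, 4, 5 and 6 days for control replicates 1 to 4. The cold libraries were collected a day later than the controls, so that temperature and time in culture cannot be told apart. The study calls the 4 libraries of a group biological replicates, and the sources do not say whether each came from a different animal or culture. The p-values given for other genes measure the spread between these libraries.

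Dachsous and FAT proteins are giant cadherins that bind each other across the border between neighbouring cells, Dachsous acting as ligand and FAT as receptor. The kinase family of Fjx1 phosphorylates the extracellular cadherin domains of both partners in the Golgi and thereby tunes their affinity. The FAT pathway is known for its links to the Hippo growth pathway and to planar cell polarity, the alignment of cells within the plane of a tissue. A separate core planar polarity module, in which Celsr cadherins bridge cells and Vangl and Frizzled proteins gather at opposite cell faces, also orients the division of SCs along the muscle fibre.

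Levels are given in TPM, the abundance of transcripts corrected for gene length and scaled to the same total in every library. The libraries held between 16530747 and 18533801 expected counts, the estimated number of fragments per gene. The first principal component of all genes tested, with 54.5% of the variance, parted the libraries numbered 1 and 2, whether control or cold, from those numbered 3 and 4. Cold and control libraries parted along the second component (17.9%). Summed levels of fibroblast markers were 1284 to 1399 TPM in replicates 1 and 2 and 1534 to 1849 TPM in replicates 3 and 4, and those of leukocyte markers 40.9 to 49.5 and 75.3 to 104.7 TPM, respectively. Myogenic markers summed to 2356 to 3097 TPM in replicates 1 and 2 and to 1998 to 2382 TPM in replicates 3 and 4. All 8 myogenic markers were present, Pax7 at 12.7 ± 2.17 TPM and Myod1 at 614 ± 103 TPM in control libraries (SD, n = 4).

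At 37°C the members spanned a wide range of TPM levels. Fat1 was the highest at 54.5 ± 11.9 TPM (SD, n = 4 control libraries for each value here) and lay above 78.4% of the genes tested. Vangl2 followed at 5.23 ± 0.294 TPM and Dchs1 at 2.40 ± 0.114 TPM, which lay above 26.2% and 16.3% of the genes tested, respectively. Fjx1 stood at 1.59 ± 0.886 TPM. Dchs2, Fat4, Celsr2 and Celsr1 all stood under 0.7 TPM in every control library, and Fat2 and Fat3 at 0. Adjacent genes in this order whose control ranges overlapped were Dchs1 and Fjx1, Dchs2 and Fat4, Fat4 and Celsr2, and Celsr2 and Celsr1. The ranges of Fat1 and Vangl2, of Vangl2 and Dchs1, and of Fjx1 and Dchs2 did not overlap.

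**Figure D1:**
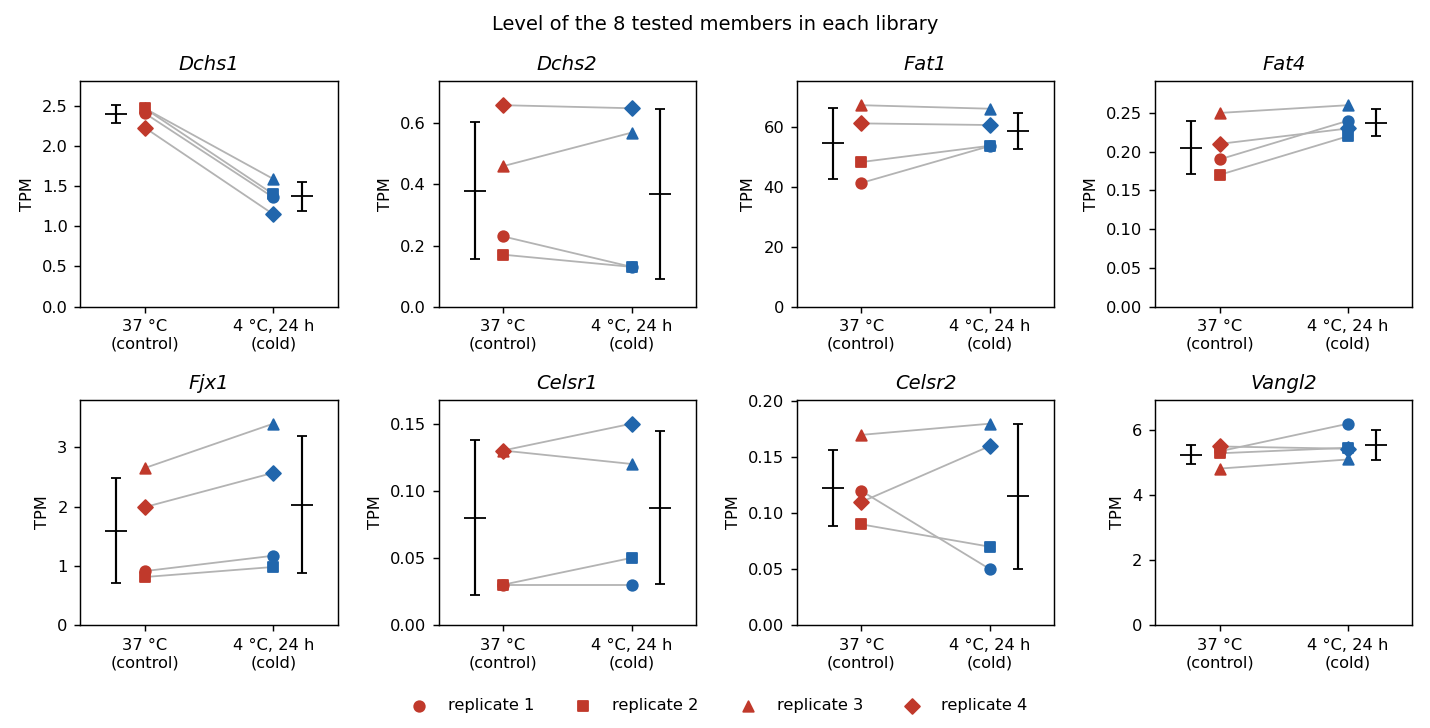
TPM of the 8 members with more than 1 count, 1 panel per gene with its own linear axis from 0, for the control libraries (37°C, red) and the cold libraries (24 h at 4°C, blue). Points are single libraries, marked by replicate number and joined within a number, and bars give the mean and SD of 4 libraries. The Dchs1 points lie at 2.23 TPM or more in control and 1.59 TPM or less in cold libraries, whereas the ranges of the other 7 genes overlap.

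Among the members, Dchs1 showed the clearest separation of the groups. Dchs1 (NCBI Gene 101844087), the main Dachsous ligand of mammals, was at 2.41, 2.47, 2.47 and 2.23 TPM in control replicates 1 to 4. In cold replicates 1 to 4 it was at 1.36, 1.40, 1.59 and 1.15 TPM. All 4 cold libraries lay under all 4 control libraries, with the largest step between replicates of the same number in replicate 4. The means were 2.40 ± 0.114 and 1.38 ± 0.181 TPM, so that the cold level was 57.4% of the control level. Among all genes tested, 2.41% showed such a separation with the cold group lower, and 2.27% with the cold group higher.

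These levels rest on 308, 329, 298 and 288 counts in the control libraries and on 183, 177, 202 and 147 counts in the cold libraries. The group sums were 1223 counts (exact 95% Poisson interval 1155 to 1294) and 709 counts (658 to 763), where the intervals cover counting error only, as the sources name no molecular identifiers. The ratio of the variance to the mean of the depth-scaled counts, which is near 1 when counting error alone is present, was 1.93 in control and 2.69 in cold libraries for Dchs1, beside medians of 3.79 and 3.30 over all genes tested. Without a block, edgeR gave a log2 fold change of −0.82 (SE 0.107). With replicate number as the block it gave −0.82 (SE 0.0806). The value was −0.89 (SE 0.105) in replicates 1 and 2 alone and −0.76 (SE 0.159) in replicates 3 and 4 alone. Among the 12506 genes tested, 172 genes (1.38%) had a log2 fold change at least as far from 0 as that of Dchs1.

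Of the 8 members in the fits, 1 (Dchs1) was among the genes with an adjusted p under 0.05, which were 0.072% of all genes without a block, all lower in the cold, and 5.33% with the block (4.07% lower and 1.26% higher). As the members were selected on this contrast, this count is not evidence about Dchs1. When single libraries were left out in turn, the log2 fold change of Dchs1 without the block lay between −0.89 and −0.74, and its adjusted p was under 0.05 in 1 of the 8 omissions (control replicate 3). The adjusted p was also not under 0.05 in limma without the block, with the stricter filter or in replicates 3 and 4 alone.

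**Figure D2:**
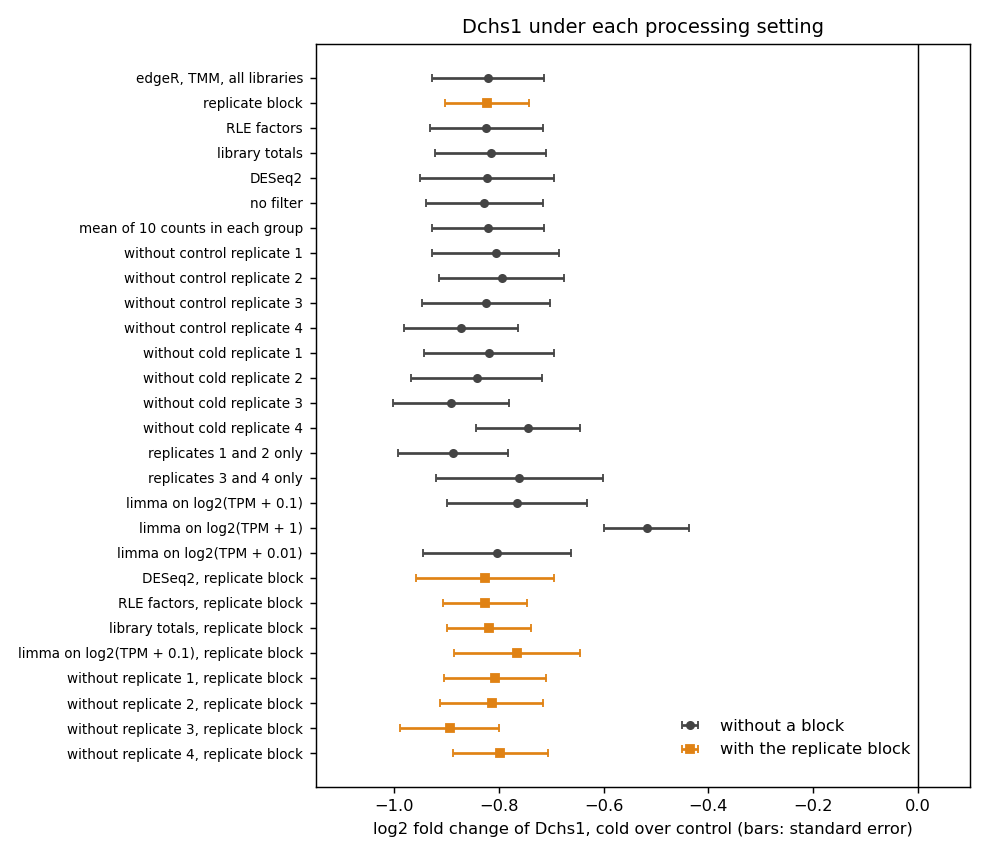
Log2 fold change of Dchs1 (cold over control, with its SE as a bar) in each of the 28 fits, with the setting on the vertical axis, a line at 0, and fits with the replicate block in orange. All 28 values are negative and lie between −0.89 and −0.52, the latter in the limma fit on log2(TPM + 1).

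Dchs2 (NCBI Gene 101840825), the other Dachsous gene, did not show this separation. It was at 0.23, 0.17, 0.46 and 0.66 TPM in control replicates 1 to 4 and at 0.13, 0.13, 0.57 and 0.65 TPM in cold replicates 1 to 4. The groups overlapped throughout, and in both groups the libraries numbered 3 and 4 were the high ones. The counts behind these values were 33, 26, 63 and 96 in control and 20, 18, 81 and 93 in cold libraries. Its log2 fold change was −0.06 with an SE of 0.586, or −0.09 with an SE of 0.175 under the block. It was −0.70 (SE 0.309) in replicates 1 and 2 alone and 0.12 (SE 0.216) in replicates 3 and 4 alone, and the difference between these values was not tested.

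Within the Dachsous pair, Dchs1 supplied most of the transcripts in every library. Its share of the summed TPM of Dchs1 and Dchs2 was 91.3%, 93.6%, 84.3% and 77.2% in control replicates 1 to 4. In cold replicates 1 to 4 the share was 91.3%, 91.5%, 73.6% and 63.9%. The cold share was lower for numbers 2, 3 and 4, while in the libraries numbered 1 it was 91.29% in control and 91.28% in cold.

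Among the receptors, Fat1 (NCBI Gene 101842219), a large cadherin also tied to actin dynamics at the cell edge, was at 41.3, 48.3, 67.3 and 61.2 TPM in control replicates 1 to 4. It was at 53.6, 53.7, 66.1 and 60.7 TPM in cold replicates 1 to 4. The cold value was higher in the libraries numbered 1 and 2 and slightly lower in those numbered 3 and 4, and the groups overlapped. The means were 54.5 ± 11.9 and 58.5 ± 6.03 TPM, and the log2 fold change was 0.09 (SE 0.123), or 0.10 (SE 0.0445) under the block. In replicates 1 and 2 alone it was 0.19 (SE 0.0530), and in replicates 3 and 4 alone −0.0049 (SE 0.0714). With 7457 to 11835 counts per library, counting error is small for Fat1. Its variance was 312 times its mean in control and 84.7 times in cold libraries.

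Fat4 (NCBI Gene 101833146), the receptor that pairs with Dchs1 in mammalian development, was at a low level, with 37 to 54 counts in each library. It was at 0.19, 0.17, 0.25 and 0.21 TPM in control and at 0.24, 0.22, 0.26 and 0.23 TPM in cold replicates 1 to 4. The cold library was higher in 4 of 4 pairs, a pattern found in 12.8% of the genes tested, but the groups overlapped. The counts summed to 170 in control (exact Poisson interval 145 to 198) and to 198 in cold libraries (171 to 228), and these intervals overlap. The log2 fold change was 0.19 (SE 0.155) in both edgeR fits. Fat2 (NCBI Gene 101838998), known from epithelia and the cerebellum, had 0 counts in each of the 8 libraries. Fat3 (NCBI Gene 101827536), known from neurons, had 1 count in control replicate 4 and 0 counts in the other 7. The floor of 3 counts used here lies between 0.162 and 0.181 CPM (counts scaled to the library total) in these libraries, so that both genes were not detectable at this depth. Fat1 made up 99.5% to 99.7% of the summed TPM of the 4 FAT genes in every library.

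**Figure D3:**
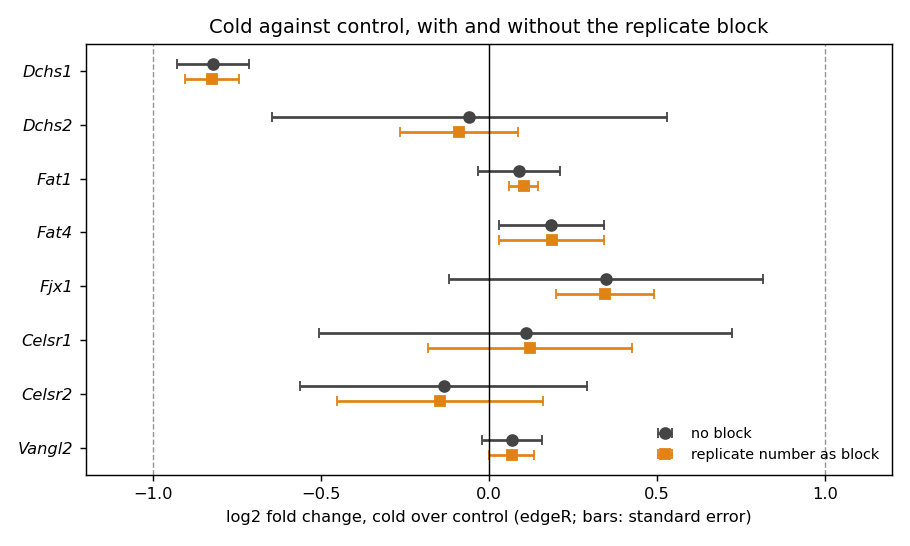
Log2 fold change (cold over control) of the 8 tested members, with bars for the SE, in the edgeR fit without a block and in the fit with replicate numbers as blocks, with dashed lines at −1 and 1. Dchs1 lies at −0.82 in both fits, the other 7 genes lie between −0.15 and 0.35, and the bars of 7 of the 8 genes are shorter with the block, Fat4 (SE 0.155 in both fits) being the exception.

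The level of Dchs1 was also set against those of Fat1 and Fat4. The TPM of Fat1 was 22.8 ± 5.29 times that of Dchs1 in control libraries (range 17.1 to 27.5) and 43.0 ± 6.61 times in cold libraries (38.4 to 52.8; SD, n = 4). The TPM of Dchs1 was 11.9 ± 2.10 times that of Fat4 in control libraries (9.88 to 14.5) and 5.79 ± 0.598 times in cold libraries (5.00 to 6.36). Neither ratio overlapped between the groups. Both carry the Dchs1 values given above, which belong to a group selected on this contrast, and are no separate result. The share of gene pairs with such a separation was not counted.

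Fjx1 (NCBI Gene 101828770), the kinase of the pathway, was higher in the cold library of each pair, a pattern found in 12.8% of the genes tested. It was at 0.91, 0.81, 2.65 and 1.99 TPM in control and at 1.17, 0.98, 3.40 and 2.57 TPM in cold replicates 1 to 4. The libraries numbered 3 and 4 were the high ones in both groups, and the groups overlapped widely. The log2 ratio of cold to control TPM was 0.36, 0.28, 0.36 and 0.37 for replicates 1 to 4, with an SD of 0.0446 over the pairs. For the counts, the log2 fold change was 0.35 with an SE of 0.468, or 0.34 with an SE of 0.145 under the block. These values rest on 28, 26, 77 and 62 counts in control and on 38, 30, 104 and 79 counts in cold libraries. The sums were 193 counts in control (exact Poisson interval 167 to 222) and 251 in cold libraries (221 to 284), and these intervals overlap. Ratios of counts this low carry counting error, so the small SD over the pairs is not read as precision. The variance of the depth-scaled counts was 13.2 times the mean in control and 19.4 times in cold libraries, far above counting error. Without the block, leaving out 1 library moved the log2 fold change to between −0.0081 (without cold replicate 3) and 0.69 (without control replicate 3).

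Of the core planar polarity members, Vangl2 (NCBI Gene 101822499), a multipass membrane protein required for oriented division, varied little. It was at 5.34, 5.28, 4.81 and 5.49 TPM in control and at 6.19, 5.45, 5.09 and 5.42 TPM in cold replicates 1 to 4. The highest value was that of cold replicate 1, and the other 3 cold libraries lay within the control range. Its log2 fold change was 0.07 (SE 0.0885), or 0.07 (SE 0.0672) under the block. Its paralog Vangl1 was at a higher level, with 12.1 ± 0.578 TPM in control and 13.0 ± 0.723 in cold libraries, and did not pass the edgeR test (log2 fold change 0.08, SE 0.0614, adjusted p = 0.998, or 0.415 with the block). Vangl2 made up 27.1% to 32.1% of the summed TPM of both genes in control and 27.8% to 31.5% in cold libraries.

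The Celsr cadherins were detected at low counts, between 4 and 45 per library over the 3 genes. Celsr1 (NCBI Gene 101824771) had 4, 4, 16 and 17 counts in control and 4, 6, 16 and 19 counts in cold replicates 1 to 4, or between 0.03 and 0.15 TPM. It reached the filter on low counts only through the libraries numbered 3 and 4. Its log2 fold change was 0.11 (SE 0.615), or 0.12 (SE 0.304) under the block. Celsr2 (NCBI Gene 101835256) had 15, 11, 20 and 13 counts in control and 6, 8, 22 and 19 counts in cold replicates 1 to 4, or between 0.05 and 0.18 TPM. The cold library was lower for numbers 1 and 2 and higher for numbers 3 and 4, and the log2 fold change was −0.13 (SE 0.427), or −0.15 (SE 0.307) under the block. Celsr3, the third gene of the family, stood above both, with 0.273 ± 0.0320 TPM in control and 0.268 ± 0.0492 in cold libraries (log2 fold change −0.05, SE 0.175, adjusted p = 0.999 without the block). With SEs of this size, a modest difference in Celsr1 or Celsr2 was not detectable at this depth.

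Over the 8 members tested, 3 had a negative and 5 a positive log2 fold change, with a median of 0.08 beside 0.01 over all genes tested. No member passed both an adjusted p under 0.05 and an absolute log2 fold change of 1 in any of the 28 fits. That rule called 0.04% of all genes lower and 0% higher without the block, and 0.808% lower and 0.04% higher with it.

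The contrast between libraries 1 and 2 and libraries 3 and 4 was larger than that between temperatures for several members. The mean TPM of replicates 3 and 4 over that of replicates 1 and 2 was 2.80 in control and 4.69 in cold libraries for Dchs2. The same ratio was 2.70 and 2.78 for Fjx1, and 4.33 and 3.38 for Celsr1. It was 1.43 and 1.18 for Fat1. In these 4 genes every library numbered 3 or 4 lay above every library numbered 1 or 2, as in 23.5% of all genes tested. In Dchs2, Fjx1 and Celsr1 the mean over both groups was also at least 2-fold higher, as in 2.34% of all genes tested, but Celsr1 entered the genes tested only through its counts in replicates 3 and 4. Dchs1 showed no such contrast, with ratios of 0.963 in control and 0.993 in cold libraries, and neither did Vangl2, with 0.970 and 0.903. The ratio was 1.28 in control and 1.07 in cold libraries for Fat4, and 1.33 and 2.83 for Celsr2, whose control libraries overlapped. No member was lower in every library numbered 3 or 4 than in every library numbered 1 or 2, as 9.09% of all genes tested were. The fibroblast and leukocyte markers were higher and the myogenic markers lower on average in replicates 3 and 4, with the ranges given above, and their part in the values of these members was not tested. In bulk libraries, fewer cells of a type and less RNA per cell cannot be told apart.

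**Figure D4:**
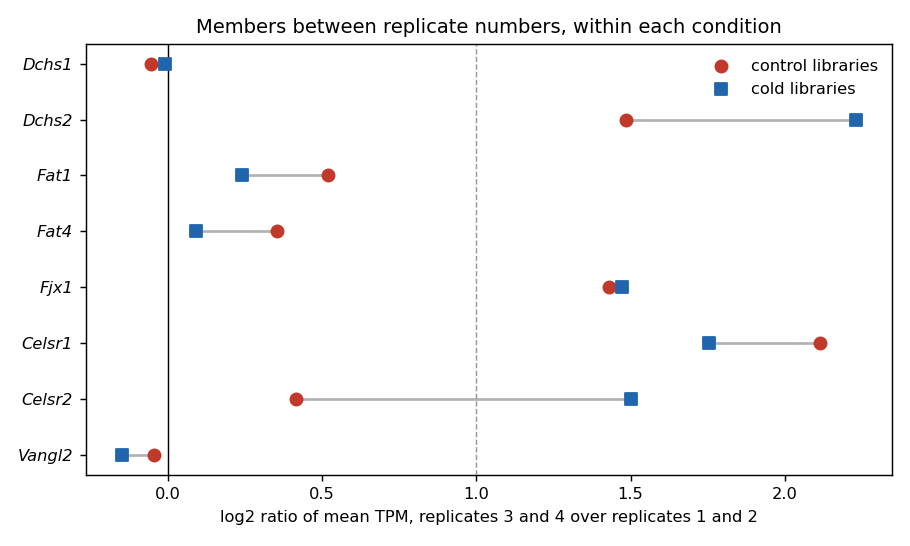
TPM of each tested member in replicates 3 and 4 relative to replicates 1 and 2, as the log2 ratio of the means, for control libraries (red circles) and cold libraries (blue squares), with a solid line at equal levels and a dashed line at a 2-fold ratio. Dchs2, Fjx1 and Celsr1 lie to the right of the dashed line in both groups (ratios 2.70 to 4.69), while Dchs1 and Vangl2 lie close to the solid line (0.903 to 0.993).

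For the highest gene of each family, the 3 genes with the most similar profile over the 8 libraries were sought among all 12506 genes tested, by Pearson's r of log2 CPM. The points share libraries, group and depth, and r is given as a description. Dchs1 was most similar to Neb (nebulin of the sarcomere thin filament, r = 0.980), Cobl (an actin nucleator, r = 0.977) and Cacna1h (a T-type calcium channel, r = 0.972), with 57 genes above an r of 0.9. All 3 had lower means in the cold, at 16.1 and 11.3 TPM for Neb, 5.67 and 3.88 TPM for Cobl and 0.478 and 0.180 TPM for Cacna1h in control and cold libraries, respectively. As the groups of Dchs1 did not overlap, lower cold means came with the choice of genes most similar to it. Fat1 was most similar to Tex2 (r = 0.982), the phosphatase gene Ptpn13 (r = 0.980) and the scaffold gene Iqgap1 (r = 0.980), with 328 genes above an r of 0.9. Vangl2 was most similar to Dph5 (r = 0.971), Mcrs1 (r = 0.966) and Gprin1 (r = 0.960), with 60 genes above 0.9. Among the members, r was 0.87 between Fat1 and Fjx1 and 0.84 between Fat1 and Celsr1. Celsr1 entered the genes tested only through its counts in replicates 3 and 4, where Fat1 was also higher, so nothing is read from its r. Pearson's r was −0.33 between Dchs1 and Fat1, −0.55 between Dchs1 and Fat4 and −0.01 between Dchs1 and Dchs2. For Vangl2 and the other tested members it lay between −0.82 (Celsr2) and −0.33 (Fat4), with −0.62 for Fat1.

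Some myogenic markers were also lower in the cold libraries. Their levels summed to 2237 to 3097 TPM in control and 1998 to 2585 TPM in cold libraries, and these ranges overlap. None of the 8 passed the edgeR test without the block, and 3 were lower with it. Of these, Myog, the regulator of myogenic differentiation, went from 738 ± 316 to 449 ± 172 TPM (log2 fold change −0.71, SE 0.0449, adjusted p = 2.96e-09 with the block and 0.824 without it). The other two were Myod1 and Itga7, whereas Pax7 stood at 12.7 ± 2.17 and 13.5 ± 1.70 TPM (log2 fold change 0.08, SE 0.110). Pericyte and smooth muscle markers summed to 1193 to 2020 TPM in control and 1029 to 1325 TPM in cold libraries. Most of this sum was Acta2, at 1526 and 1097 TPM, which was lower with the block (edgeR, adjusted p = 2.68e-05) and not without it (adjusted p = 0.676). Of the 6 markers, 4 had negative and 2 positive log2 fold changes. Pdgfrb was at 42.5 and 41.5 TPM, Cspg4 at 28.28 and 26.85, Rgs5 at 0.385 and 0.295, Myh11 at 2.37 and 2.41 and Notch3 at 1.81 and 2.08. The part of either list in the Dchs1 values was not tested. Fibroblast markers, led by Thy1 at 567.6 TPM in control libraries, summed to 1303 to 1849 TPM in control and 1284 to 1788 TPM in cold libraries, and 0 of 9 passed either edgeR fit. Endothelial markers summed to at most 2.29 TPM and Schwann cell markers to at most 3.91 TPM in any library. Of the leukocyte markers, the myeloid genes Cd68, Cd14 and Csf1r were at 34.1, 27.7 and 3.16 TPM in control libraries, Ptprc was at 0.005 TPM and Adgre1 at 0. Epithelial markers were mostly Krt18, at 216.5 TPM, beside 0.158 TPM for Epcam.

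Other genes were read from 4 lists of the planar polarity, FAT and Hippo pathways and 1 list of other cadherins, with 92 genes in all, of which 86 were in the table and 78 were tested. Without a block, 0 of the 78 passed an adjusted p under 0.05, with 2 lower and 0 higher at an unadjusted p under 0.05, where 4.13% of all genes tested were lower and 2.57% higher. In DESeq2, 0 passed as well. With the replicate block, 3 were lower (Scrib, Enah and, outside the pathway, the cadherin Cdh15) and 2 higher (Rock2 and Atn1), beside 4.07% and 1.26% of all genes tested. The median log2 fold change of the 78 genes was 0.01, as over all genes tested.

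Of 14 other core planar polarity genes, all tested, 8 had negative and 6 positive log2 fold changes, with a median of −0.02. Scrib, a scaffold that binds Vangl proteins and sets cell polarity, was at 51.3, 54.5, 51.6 and 49.8 TPM in control and at 38.0, 42.1, 46.9 and 45.4 TPM in cold replicates 1 to 4. The groups did not overlap and the cold library was lower in 4 of 4 pairs, as in 2.41% and 10.5% of all genes tested, respectively. The log2 fold change of −0.29 (SE 0.0735) did not pass the edgeR test without the block (adjusted p = 0.298) and passed it with the block (SE 0.0553, adjusted p = 0.00248). With the block, it did not pass in DESeq2 (adjusted p = 0.0906) or in limma (adjusted p = 0.0650). Without the block, its log2 fold change was −0.47 (adjusted p = 3.79e-06) in replicates 1 and 2 alone and −0.12 (adjusted p = 0.997) in replicates 3 and 4 alone, and the difference between these values was not tested. The highest of the list, the pseudokinase gene Ptk7, was at 74.6 ± 6.53 and 73.6 ± 3.62 TPM in the groups (adjusted p = 0.739 with the block).

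Of 18 tested planar polarity ligands, co-receptors and effectors, 6 had negative and 12 positive log2 fold changes, with a median of 0.04. Rock2, the kinase downstream of RhoA, had 36.0 ± 5.11 TPM in control and 40.1 ± 1.83 in cold libraries and was higher in 4 of 4 pairs. Its log2 fold change was 0.14 (SE 0.0713, adjusted p = 0.83) without the block and 0.15 (SE 0.0422, adjusted p = 0.0497) with it. With the block, it did not pass with RLE factors (adjusted p = 0.0566), in DESeq2 (0.141), in limma (0.253) or without replicate 1, 2 or 3 (0.331, 0.359 and 0.0672). Without the block, it was at a log2 fold change of 0.23 in replicates 1 and 2 alone and 0.06 in replicates 3 and 4 alone. Rhoa itself, the highest of the list, was at 513.8 ± 20.3 and 522.5 ± 5.98 TPM (adjusted p = 0.932 with the block).

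Of 13 tested partners of FAT and Dachsous, 9 had negative and 4 positive log2 fold changes, with a median of −0.01. Enah, an actin regulator of the Ena/VASP family, had 21.1 ± 2.62 TPM in control and 18.1 ± 1.67 in cold libraries. It was lower in 4 of 4 pairs, as 10.5% of all genes tested were, although the groups overlapped. Its log2 fold change was −0.26 (SE 0.120, adjusted p = 0.767) without the block and −0.26 (SE 0.0496, adjusted p = 0.00279) with it, and it did not pass in limma with the block (adjusted p = 0.141). Atn1, a corepressor of the atrophin family that binds FAT proteins, was higher in 4 of 4 pairs, at 36.7 ± 4.4 and 41.5 ± 3.95 TPM (log2 fold change 0.16, SE 0.0426, adjusted p = 0.0304 with the block and 0.797 without it). With the block, it did not pass in DESeq2 (adjusted p = 0.118), in limma (0.126) or without replicate 2 or 3 (0.315 and 0.119). Csnk1d, the highest of the list, which encodes a casein kinase, was at 115.6 ± 4.82 and 121 ± 3.43 TPM (adjusted p = 0.830 with the block).

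None of the 14 Hippo pathway genes, from the upstream kinases to the TEAD factors, passed the test in either edgeR fit, and 4 had negative and 10 positive log2 fold changes, with a median of 0.03. Yap1, the coactivator that the pathway restrains, was the highest, with 122.6 ± 30.9 TPM in control and 126.5 ± 23.8 in cold libraries (log2 fold change 0.03, SE 0.165, adjusted p = 0.999, or 0.599 with the block). Its counts were not whole numbers in any of the 8 libraries, as happens where fragments match more than 1 sequence, and its values are uncertain to that extent.

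Of 19 tested cadherins outside the Dachsous, FAT and Celsr families, 9 had negative and 10 positive log2 fold changes. Cdh15, the M-cadherin of SCs and myoblasts, was the highest, at 198, 199, 135 and 162 TPM in control and at 158, 159, 117 and 128 TPM in cold replicates 1 to 4. The cold library was lower in 4 of 4 pairs, as in 10.5% of all genes tested. The groups overlapped, with control replicate 3 within the cold range. Its log2 fold change was −0.33 (SE 0.163, adjusted p = 0.826) without the block and −0.32 (SE 0.0380, adjusted p = 1.19e-05) with it. The log2 fold change farthest from 0 in the lists was that of Cdh23, picked out after its values were seen, at −0.84 (SE 0.482, adjusted p = 0.881, or 0.15 with the block) and a level of 0.108 ± 0.0419 in control and 0.0600 ± 0.0408 TPM in cold libraries. Cdh23 was the only gene of the 78 whose log2 fold change was at least as far from 0 as that of Dchs1 in the fit without the block. This is 1.28% of the 78, beside 1.38% of all genes tested.

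**Figure D5:**
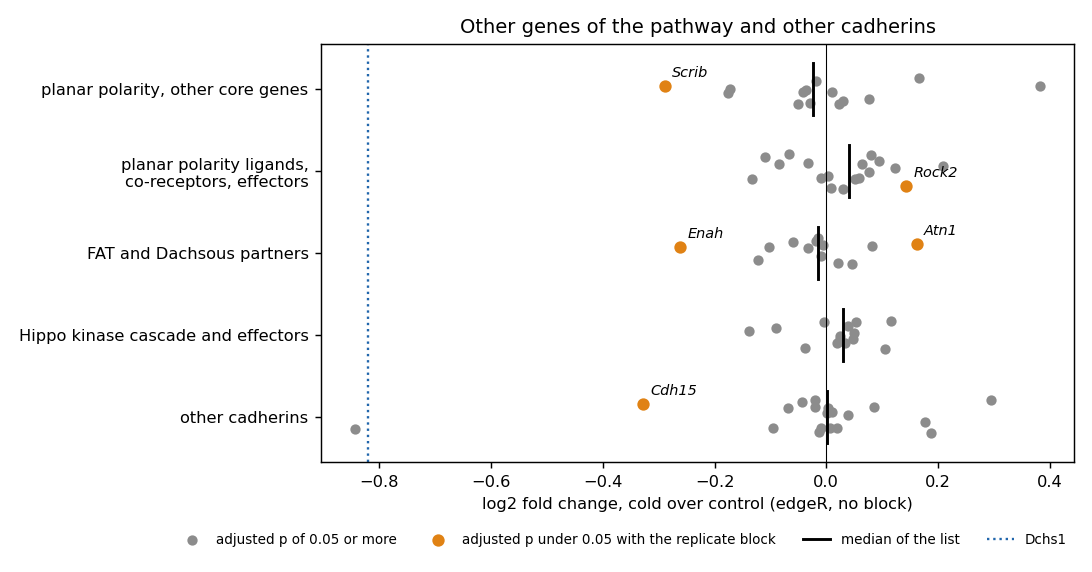
Log2 fold change (cold over control, edgeR without a block) of each of the 78 tested genes of the 4 pathway lists and the list of other cadherins, 1 row per list, with a bar at the median of the list and a dotted line at the value of Dchs1 (−0.82). The genes lie between −0.84 and 0.38, and the 5 with an adjusted p under 0.05 in the fit with the replicate block (Scrib, Rock2, Enah, Atn1 and Cdh15) are orange and named.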

How the data were processed

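Poly(A) RNA of 8 libraries, 4 control and 4 cold, was sequenced for the authors by BGI as paired-end reads of 150 bp. The deposited table gives, per gene and library, an expected count that is not normalized, a TPM value that the authors scaled within libraries, and a normalized count, a signal that the authors scaled by 1 factor per library (0.924 to 1.02) and that was not used for tests. Between 96.4% and 96.6% of the deposited expected counts were whole, as were all those of the members. HISAT and HISAT2 are named in the submitters' processing notes. The genome build and the counting program are not given in the sources used here. Identifiers were matched to RefSeq (BCM_Maur_2.0, names only), and 31581 of 31581 matched.

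Counts were rounded and tested with the quasi-likelihood test of edgeR 4.0.16 in R 4.3.3 (filterByExpr, TMM factors, cold against control, Benjamini-Hochberg adjustment over 12506 genes). Of the 10 members, 8 passed the filter. Groups were taken from the titles. The deviations from group means of control and cold libraries with the same replicate number in the titles correlated across genes at 0.609, 0.618, 0.647 and 0.659. Libraries of different numbers correlated at 0.432 to 0.591 within the pair of numbers 1 and 2 or of 3 and 4, and negatively between these pairs, so that much of the correlation goes with that division. As each same-number value was above 0.1, replicate numbers were treated as pairs, although the labels do not say what a number marks, and an edgeR fit with replicate blocks was added to the unblocked fit. Different numbers within 1 and 2 or within 3 and 4 also exceeded 0.1, so this criterion cannot show that equal numbers are pairs. DESeq2 1.42.0, limma 3.58.1 and other filters, factors and libraries were alternatives. The scripts were tested on simulated data. Figures were drawn with matplotlib 3.10.9.

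The members, the lists and the tests were chosen with earlier results of these data known. All members are named. Of each list, the genes with an adjusted p under 0.05 in either edgeR fit, the gene with the highest control TPM and the paralogs Celsr3 and Vangl1 are named. Of each marker list, the gene highest in control TPM and a few defining markers are named, the latter chosen after their values were seen.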

Additional observations from a re-analysis of the deposited data

How the results depend on the processing

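Genes lower and higher past both thresholds numbered 5 and 0 without the replicate block and 101 and 5 with it. Lower genes numbered 8 with library totals, 71 with DESeq2, 15 without a filter, 3 with a mean of 10 counts in each group and 3 in limma at each pseudocount (0.1, 1 or 0.01), all with 0 higher, and 9 at an adjusted p under 0.05 alone. Replicates 1 and 2 alone gave 175 lower and 8 higher genes, and replicates 3 and 4 alone 27 and 1. Leaving out 1 library gave 0 to 33 lower, the 33 without control replicate 3, and 0 to 1 higher. Fits with the block, added after seeing the data, gave 91 and 1 with DESeq2, 102 and 5 with RLE factors, 100 and 5 with library totals, 85 and 1 with limma, and 81, 97, 131 and 114 lower and 7, 4, 4 and 3 higher without replicate number 1, 2, 3 or 4.

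Of the members, which were selected on this contrast and are counted as a description, 0 passed both thresholds in every fit, and 1, Dchs1, passed an adjusted p under 0.05 alone. That count was 0 with the stricter filter, in limma without the block at each pseudocount, in replicates 3 and 4 alone and without any 1 library other than control replicate 3 (0 to 1), and 1 in the other 16 fits. No member was higher at that threshold, other than 1 (Fat1) in replicates 1 and 2 alone. In that fit 175 genes were lower and 8 higher past both thresholds. Shares of all genes at an adjusted p under 0.05 alone are given above only for edgeR with and without the block. Nothing is read from the counts in the other fits. Of the other pathway genes and cadherins, those lower and higher numbered 3 and 2 with the block, 3 and 4 in replicates 1 and 2 alone, 2 and 0 with DESeq2 and the block, 3 and 1 with RLE factors and the block, 3 and 2 with library totals and the block, 1 and 0 with limma and the block, and 3 with 0 to 3 higher without 1 replicate number (1 without number 1), and 0 and 0 elsewhere.

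The sign of the log2 fold change was negative in 28 of 28 fits for Dchs1 and positive in 28 of 28 for Fat4 and Vangl2. It was positive in 26 of 28 for Fat1, 27 of 28 for Fjx1 and 21 of 25 for Celsr1, and negative in 22 of 28 for Dchs2 and 23 of 28 for Celsr2. That of Celsr3 (−0.05) ranged from −0.1614 without cold replicate 3 to 0.02919 without cold replicate 2, and was 0.0069 in replicates 3 and 4 alone and 0.0070 without replicate 2 with the block. The cause of these shifts was not tested. All 28 fits draw on the same 8 libraries, so agreement of sign between them is no separate support for a change. Without the block, the log2 fold change was 0.19 (SE 0.155) for Fat4 and 0.07 (SE 0.0885) for Vangl2. The share of all genes with 1 sign in every fit was not counted. Depth limits Celsr1, Celsr2, Fat2 and Fat3 most.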
